A study of Homo sapiens with 17 samples.

Results

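Gene expression in Karpas-422, an established human cell line derived from diffuse large B cell lymphoma, was compared between 3 untreated libraries and 3 libraries of cells given A-485 for 48 h. These 6 libraries were chosen by their labels and are 6 of the 15 count files, and of the 17 sample records, in the series. Its other libraries come from a further lymphoma line, WSU-DLCL2, and were not used. The labels call the controls untreated, whereas the names of the deposited files call them DMSO, the solvent in which such compounds are usually given. No genetic change is labelled in either group, and the sources used here do not give its dose. Reads per gene were measured in total RNA, for 63677 genes in each library. Whether the replicates are separate cultures is not labelled, so p-values here reflect library-to-library spread that could be technical.

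A-485 blocks the catalytic site of p300 and CBP, paralogous enzymes encoded by EP300 and CREBBP that place acetyl groups on histones at enhancers and active promoters. Acetylated histones are read by bromodomain proteins, which help RNA polymerase II to start and elongate transcripts, and genes driven by strong enhancers are known to depend on both enzymes. Read counts are relative, so a change in total RNA per cell cannot be seen in them, and fewer cells of a kind cannot be told apart from less RNA per cell.

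Reads that fell outside annotated genes took up a larger share of the libraries with A-485. They made up 10.6%, 8.62% and 8.63% of uniquely aligned reads in untreated replicates 1 to 3 and 18.4%, 17.1% and 18.3% with A-485, means of 9.28% ± 1.14 and 17.9% ± 0.693 (SD, n = 3 each). The groups did not overlap, and the difference of 8.66 percentage points had a two-sided exact permutation p of 0.1, the smallest that 3 against 3 libraries can give. Reads without a unique alignment took a smaller share, 55.2% ± 0.582 of all reads against 48.9% ± 0.0704. Counts assigned to genes were 8186582, 7811123 and 6949770 in the untreated libraries and 7792197, 8897051 and 8589083 with A-485. At that depth 10066 to 10945 genes had at least 10 counts in untreated libraries and 12056 to 12333 with A-485, while the 1000 highest genes held 70.5% ± 1.004 and 65.4% ± 0.171 of gene counts. Untreated replicate 1 stood apart from the other untreated libraries: it had the highest share of reads outside genes, and over genes with at least 20 counts its chi-square per gene was 5.89 and 6.03 against replicates 2 and 3, which differed from each other by 2.38. Without it, the difference in reads outside genes was 9.31 percentage points.

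**Figure D1:**
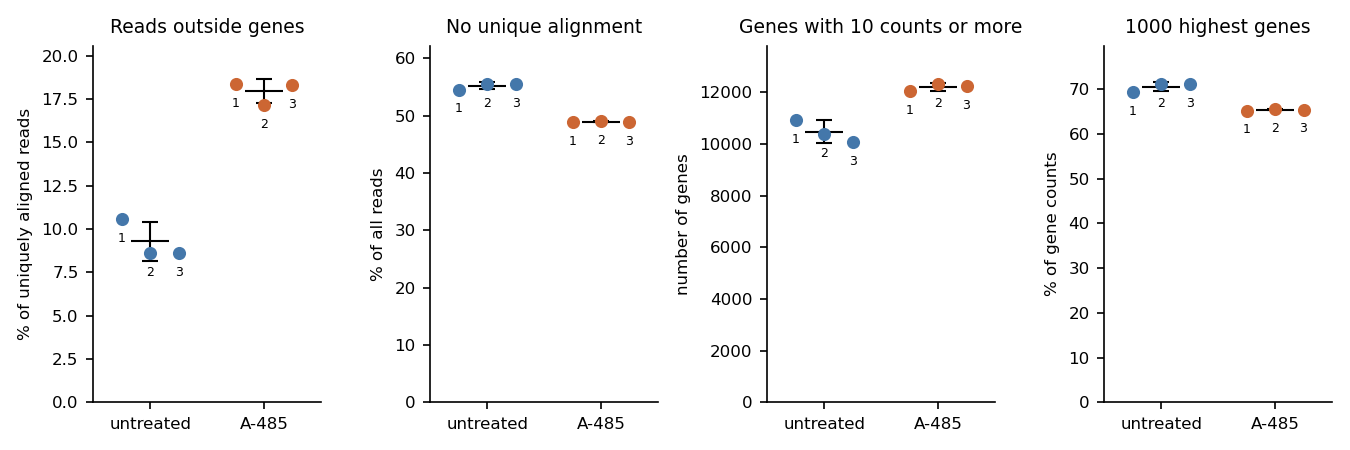
Read composition of each library: the share of uniquely aligned reads outside genes, the share of all reads with no unique alignment, the number of genes with at least 10 counts and the share of gene counts in the 1000 highest genes. Points are libraries numbered by replicate, and black lines are means with SD (n = 3). In all 4 panels the groups do not overlap, and untreated replicate 1 lies nearest to the A-485 libraries.

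Of the genes, 11846 passed the filter on low counts and were tested with edgeR's quasi-likelihood test at a Benjamini-Hochberg adjusted p of 0.05. With TMM scaling, which sets the bulk of genes to no change, 4459 genes (37.6%) rose and 3998 (33.7%) fell, so 71.4% of tested genes changed. By library size alone, which keeps each library's gene counts at the same total, 6454 genes (54.5%) rose and 2292 (19.3%) fell. The median log2 fold change was 0.08 with TMM and 0.49 by library size, and changes below are TMM values unless library size is named. The shift from TMM to library size was upward, so rises could hardly be lost by it and their agreement is no separate check. Every gene that rose with TMM also rose by library size. Of those that fell with TMM, 2292 also fell by library size, 1501 were not called and 205 rose. The untreated and A-485 values did not overlap for 8854 of the tested genes (74.7%).

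Rises were larger in fold and lay in genes with few reads, while falls were smaller and lay in genes with many. At least 2-fold changes were called for 2693 genes upward (22.7%) and 1397 downward (11.8%), and at least 8-fold changes for 189 and 71. The genes called up had a median level of 3.68 CPM (counts per 1000000 gene counts, by library size) untreated and 11.96 CPM with A-485. The genes called down had a median of 46.4 CPM and 35.8 CPM. Summed, the genes called down held 763155 CPM untreated and 596312 CPM with A-485, whereas those called up held 99290 and 222270. Among the 2370 tested genes with the lowest mean levels, 1007 rose and 343 fell, with a median log2 fold change of 0.57. Among the 2369 with the highest, 417 rose and 1590 fell, with a median of -0.42 (-0.01 by library size).

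**Figure D2:**
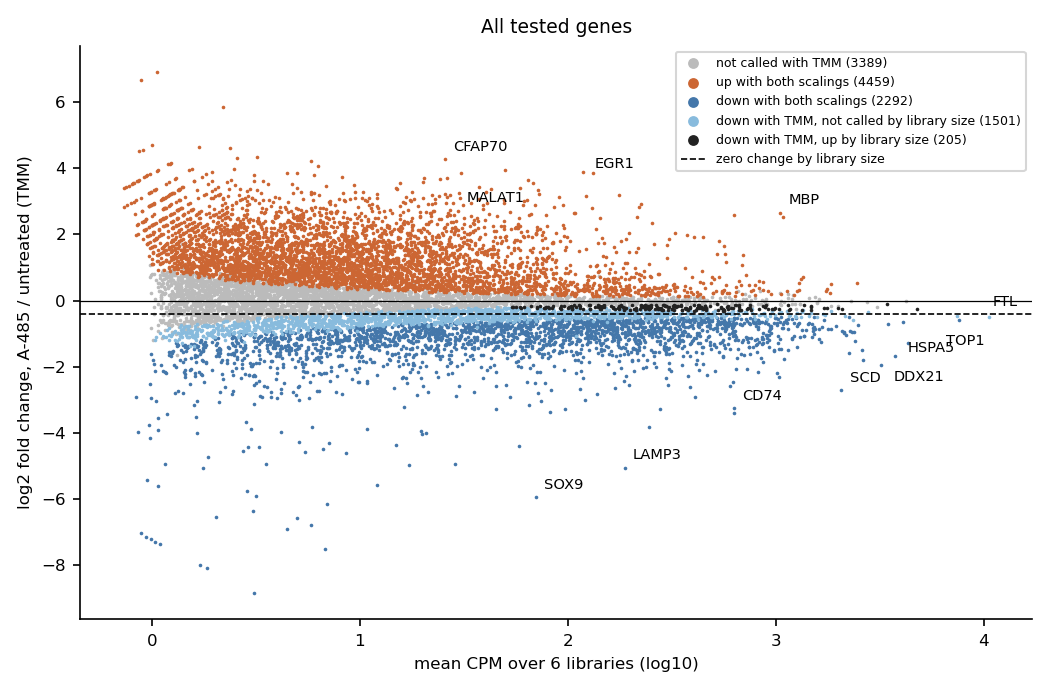
Log2 fold change with TMM scaling (A-485 over untreated) against mean CPM by library size over the 6 libraries (log10), for all 11846 tested genes. Colours give the call under both scalings, and the dashed line marks zero change by library size. Rises spread widely at low levels, and most genes at the right edge lie below zero, among them TOP1 and HSPA5.

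Gene types differed in the balance of rises and falls. Of 9220 protein-coding genes tested, 3283 rose and 3380 fell, with a median log2 fold change of 0.01 (0.42 by library size). Of 743 genes annotated as antisense to another gene, 385 rose and 100 fell, with a median of 0.62 (1.02 by library size). Long intergenic noncoding genes (lincRNAs) gave 223 rises (42.97%) and 123 falls (23.7%) of 519, with a median of 0.37. Their median level was 4.17 CPM, against 15.5 CPM for protein-coding genes. Among all 2369 tested genes of 2.79 to 6.75 CPM, 43.6% rose and 20.01% fell, with a median of 0.36. The balance of lincRNAs was thus close to that of tested genes near their level. Genes that lie within introns of others, overlap them or share their promoter gave 88 rises and 26 falls of 161, with a median of 0.59. Pseudogenes, 272 up and 241 down of 723 with a median of 0.03, were close to the protein-coding genes in this balance but more widely spread. Their quartiles were -0.86 and 1.19, against -0.57 and 0.77 for protein-coding genes. As a share of all gene counts, protein-coding genes went from 95.9% ± 0.177 to 94.3% ± 0.0303 and antisense genes from 0.621% ± 0.0487 to 1.002% ± 0.004995. The share of lincRNAs went from 0.711% ± 0.0419 to 1.14% ± 0.0133, and that of pseudogenes from 0.821% ± 0.0471 to 1.21% ± 0.0155. The groups did not overlap in any of these types. All 37 genes of the mitochondrial chromosome were listed at 0 counts in all 6 libraries.

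Antisense genes named for the gene they oppose could be set beside it in 291 pairs with both members tested. The antisense member rose in 142 pairs and fell in 57. Its partner rose in 116 and fell in 99, near the shares over all tested genes, 37.6% up and 33.7% down. Both rose in 66 pairs and both fell in 30, while the antisense member rose and the partner fell in 39. The reverse held in 16. The median log2 fold change was 0.49 for the antisense members and 0.03 for the partners. Genes with antisense names, 353 tested, had a median level of 4.86 CPM. Among the 2369 tested genes of 2.79 to 6.75 CPM, 1033 rose and 474 fell. The part of level in the gap between the members was not tested. No source used here states the strand of the libraries, so reads of such overlapping pairs cannot be told apart.

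The direction of change moved with the number of transcripts that the annotation lists for a protein-coding gene. Of 486 with 1 transcript, 70 rose and 310 fell, with a median log2 fold change of -0.55. The median was -0.39 for those with 2 to 3 transcripts, -0.23 with 4 to 6, 0.09 with 7 to 10, 0.36 with 11 to 20 and 0.65 with over 20, where 408 of 708 rose and 105 fell. By library size it ran from -0.15 for 1 transcript to 1.05 for over 20, in the same order. The measured level ran the other way: the median CPM per kilobase of exon was 22.8 with 1 transcript, 11.98 with 2 to 3, 2.61 with 7 to 10 and 1.38 with over 20. The sources used here do not say how reads shared by several transcripts of a gene were counted. Such reads may have been left out, in which case levels of genes with many transcripts are understated, and the part of this in the fold changes was not tested. Among protein-coding genes over 100 CPM, 164 of 205 with 1 transcript and 203 of 346 with over 10 transcripts fell, and 15 and 82 rose. Between 5 and 20 CPM, 40 of 78 with 1 transcript fell and 16 rose, whereas 180 of 1206 with over 10 transcripts fell and 694 rose.

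Genes with 1 transcript that do not code for protein did not share this balance: 606 of 1402 rose and 347 fell, with a median of 0.36. They too moved with level. Under 5 CPM 410 of 929 rose and 183 fell, and between 20 and 100 CPM 50 of 119 rose and 52 fell. At that last level 18 of 114 protein-coding genes with 1 transcript rose and 78 fell. These crossed counts were made after the data had been seen.

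**Figure D3:**
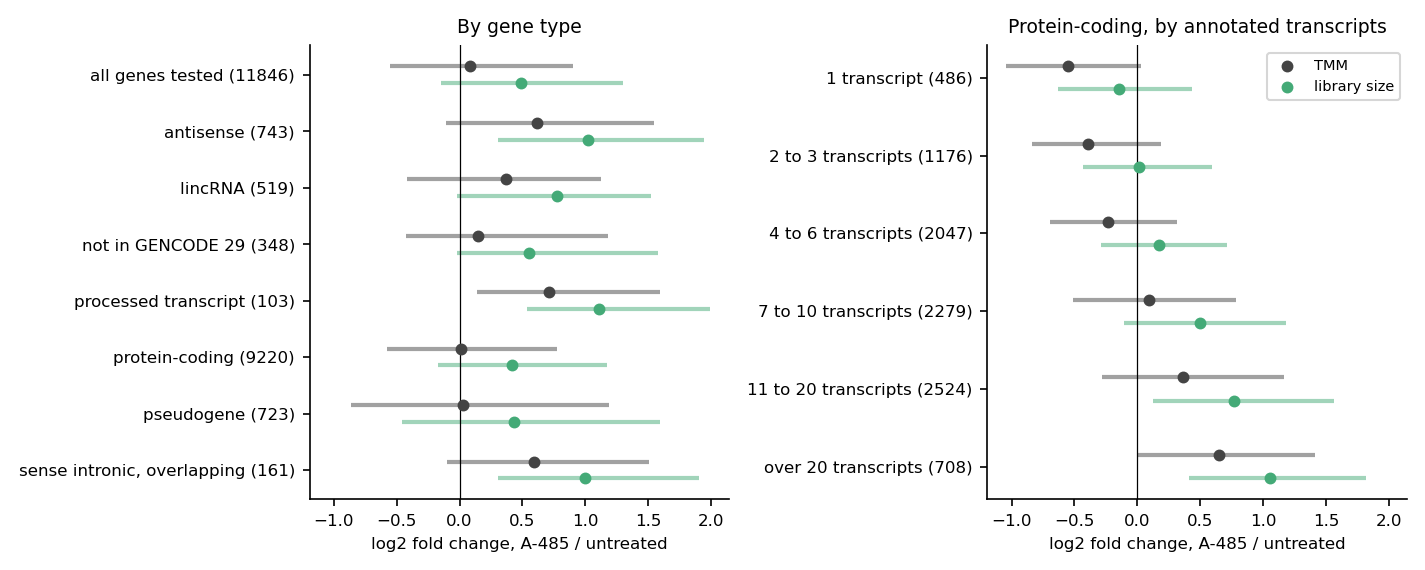
Median log2 fold change (points) and interquartile range (bars) by gene type, for types with at least 100 tested genes, and by number of annotated transcripts for protein-coding genes, with TMM and by library size. Numbers of tested genes are in parentheses. Antisense genes lie right of protein-coding genes under both scalings, and the medians climb from 1 transcript (-0.55) to over 20 (0.65).

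The 12 largest falls among protein-coding genes, chosen by the rule given under processing, were of 3.84 to 5.95 on the log2 scale. SOX9, a transcription factor best known from cartilage and testis, had 143, 156 and 177 CPM untreated and 2.996, 2.06 and 2.63 CPM with A-485, a log2 fold change of -5.95 (SE 0.13, adjusted p = 2.13e-13). LRIG1, a membrane protein that restrains growth factor receptors, had 24.6, 32.3 and 24.98 against 0.222, 0.588 and 0.809 CPM, a log2 fold change of -5.59. LAMP3, a lysosomal membrane protein of dendritic cells, held far more reads, 386, 430.3 and 434 CPM against 11.99, 12.9 and 12.4 CPM, a log2 fold change of -5.06. Within each group the libraries of SOX9 and LAMP3 lay close together, and the groups were 61.9-fold and 33.3-fold apart in the fit.

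Among the other large falls were TRIB1, DUSP2 and DUSP4, which restrain signalling. TRIB1, a pseudokinase scaffold that directs proteins to degradation, went from 121, 133 and 124 to 5.33, 6.47 and 5.97 CPM (log2 -4.403). DUSP2 and DUSP4 remove phosphates from MAP kinases. DUSP4 had 488, 545 and 515 CPM untreated and 38.4, 34.8 and 34.9 with A-485 (log2 -3.84), and DUSP2 had 36.3, 29.4 and 31.1 against 1.78, 1.96 and 0.91 (log2 -4.37). The family as a whole was mixed: of 13 dual-specificity phosphatase genes tested, 4 rose and 5 fell, against 37.6% and 33.7% of all tested genes. RGS16, which speeds the switching-off of G proteins, has 1 annotated transcript and fell from 193, 199 and 200.3 to 21.6, 19.3 and 20.02 CPM (log2 -3.28). Its family counted 7 falls and 1 rise among 9 tested genes, with a median of -0.66.

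The remaining large falls included genes best known from other tissues. DDN, a protein of kidney and brain with 1 transcript, fell by 4.97 on the log2 scale and C14orf132 by 4.96. The collagen gene COL23A1 fell by 4.05. The neuropeptide receptor gene ADCYAP1R1 had a log2 fold change of -4.004, and ENHO, which encodes a secreted peptide of liver and brain, fell by 3.95 and the cytokine gene TNFSF15 by 3.88. Absence of overlap and a fall under both scalings were conditions of the choice. The median number of annotated transcripts in these 12 was 3.

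**Figure D4:**
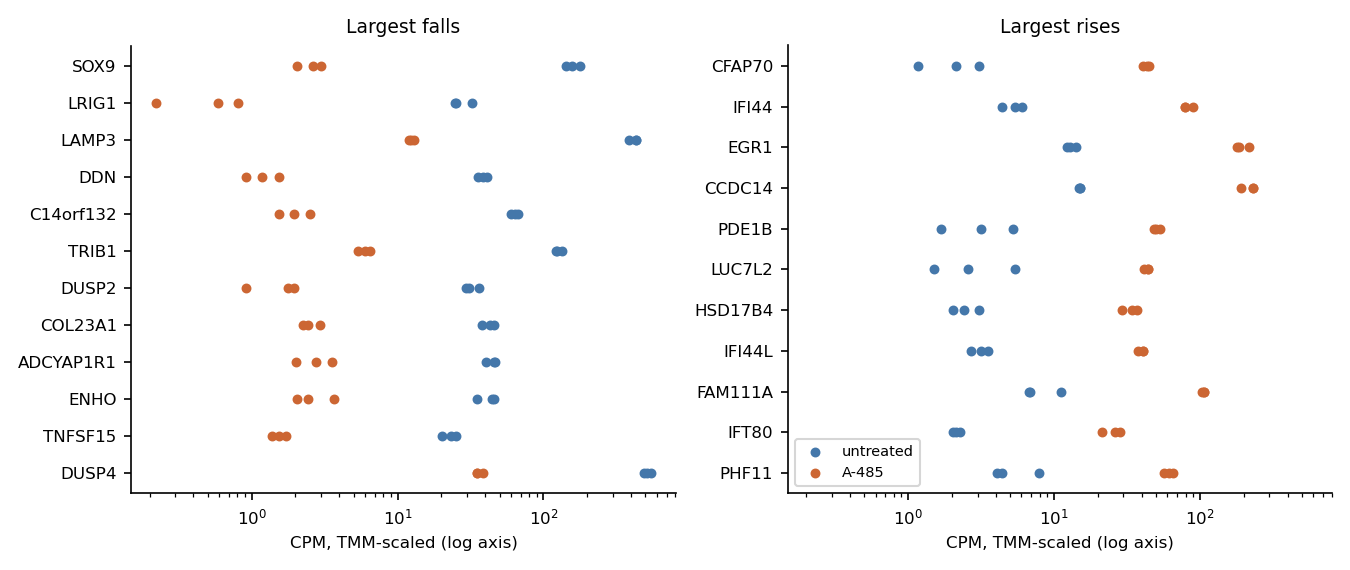
CPM with TMM scaling (log axis) in each library for the 12 largest falls and 11 of the 12 largest rises among coding genes that reached 20 CPM or more in a group. Blue points are untreated and orange points A-485 libraries (n = 3 each). Falling genes had to reach 20 CPM untreated and rising genes with A-485, so these levels follow from the choice.

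The 12 largest rises were of 3.45 to 4.28 on the log2 scale and began from low levels. EGR1, an immediate-early transcription factor with 1 transcript, had 14.1, 12.3 and 12.8 CPM untreated and 217, 187 and 181 with A-485, a log2 fold change of 3.89 (SE 0.10, adjusted p = 5.76e-13). CCDC14, a centriolar satellite protein, had 14.9, 15.1 and 15.02 against 193, 230.2 and 232 CPM (log2 3.86). CFAP70, a protein of the ciliary axoneme, had 3.09, 2.12 and 1.18 against 40.5, 43.5 and 44.6 CPM (log2 4.28). Libraries of a group lay close together for EGR1 and CCDC14, while untreated replicate 1 was the highest of the untreated libraries for CFAP70.

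That library was also the highest of the 3 untreated ones for other genes that rose. LUC7L2, a splicing factor of the U1 particle, had 5.38, 2.57 and 1.52 CPM untreated and 41.2, 44.2 and 44.3 with A-485 (log2 3.71). PDE1B, which breaks down cyclic nucleotides, had 5.24, 3.18 and 1.69 against 53.3, 49.99 and 48.5 CPM (log2 3.85). PHF11 (log2 3.45), the peroxisomal enzyme HSD17B4 (log2 3.71) and the antiviral protease FAM111A (log2 3.65) also had their highest untreated value in it. The intraflagellar transport gene IFT80 (log2 3.55) had 2.15, 2.27 and 2.03 CPM untreated, with no such library. IFI44 and IFI44L, also in the list, are described with their family. The 12 had a median of 10.5 annotated transcripts, from 1 for EGR1 to 41 for HSD17B4.

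Of the 10 genes that held the most counts, which is not a level per length, 9 fell with TMM. By library size 5 of them fell and 3 rose. FTL, the light chain of the iron store ferritin, held the most: 12528, 12167 and 12918 CPM untreated and 8984, 9233 and 8500.3 with A-485, a log2 fold change of -0.49 (SE 0.05) that was -0.09 and not called by library size. TOP1, which relaxes supercoiled DNA ahead of polymerases, had 8507, 9896 and 9592 against 6112, 6213 and 6113 CPM (log2 -0.60, and -0.19 by library size, called under both). POU2AF1, a B cell coactivator, fell by 0.47 on the log2 scale with TMM, and was at -0.06 and not called by library size. MSN, which ties actin to the membrane, and the chromatin remodeller SMARCA5 fell under both scalings, at -0.66 and -0.71. TOP2A, the topoisomerase of dividing cells, had 3549, 4552 and 4511 against 3922, 4293 and 4268 CPM. Its groups overlapped, its log2 fold change of -0.01 was not called, and by library size it rose by 0.40. Without untreated replicate 1 it was called down, at -0.12.

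The 6 genes that lost the most CPM by library size all code for protein. SCD, which desaturates fatty acids, had 3208, 4443 and 4246 CPM untreated and 593, 609 and 621 with A-485 (log2 -2.71, SE 0.11, adjusted p = 4.79e-08). DDX21, a nucleolar RNA helicase, had 4870, 5959 and 5664 against 1389, 1430 and 1467 CPM (log2 -1.94). PLEK, a protein kinase C substrate of blood cells, had 4006, 4696 and 4445 against 1217, 1280 and 1258 CPM (log2 -1.81). Untreated replicate 1 was the lowest untreated library for these 3 genes, and it still lay more than 2-fold above all A-485 libraries. HSPA5, the main chaperone of the endoplasmic reticulum, had 5727, 6474 and 6154 against 1914, 1905 and 1910.2 CPM (log2 -1.68), YWHAG, a 14-3-3 adaptor, had 3656, 4352 and 4234 against 1454, 1449 and 1425 CPM, and PARP1, a sensor of DNA breaks, fell by 1.28. Among the genes that gained the most, MBP stood at 267, 263 and 242 CPM untreated and 1699, 1585 and 1588 with A-485 (log2 2.66). MBP is the myelin basic protein gene, whose locus also gives the Golli transcripts of lymphocytes. GNA13, the alpha subunit of a G protein, had 1985, 1940.5 and 1926 against 2710.2, 2863 and 2812 CPM (log2 0.52), and CMTM6, which keeps PD-L1 at the cell surface, rose by 0.49. Both rose under each scaling, with no overlap.

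For 205 genes the direction depended on the scaling alone: they fell with TMM and rose by library size. Those with the most counts were MOB1A, a Hippo pathway adaptor (-0.24 with TMM and 0.16 by library size), HMGN2, a nucleosome-binding protein (-0.11 and 0.29), the actin-branching subunit gene ACTR2 (-0.26 and 0.15), the cohesin subunit gene RAD21 (-0.22 and 0.19), NUCKS1 (-0.24 and 0.17) and the phosphatase gene PTPN11 (-0.22 and 0.19). Replicates of MOB1A lay at 5032, 5291 and 5317 CPM untreated and 4345, 4425 and 4443 with A-485. HMGN2 lost its TMM call when untreated replicate 3 or any of the A-485 libraries was left out, at -0.13 to -0.10.

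Protein-coding genes with 1 annotated transcript gave large changes in both directions. After DDN, ENHO and RGS16, large falls among those with at least 20 CPM were in the lens connexin gene GJA3 (log2 -3.28), SCD and the membrane trafficking gene EHD3 (log2 -2.57). Parts of the ribosome assembly machinery followed: RPP25, a subunit of RNase P and MRP (log2 -2.65), RRS1 (log2 -2.45) and RRP9 (log2 -2.202). The rises in this class were fewer. TNF, an inflammatory cytokine, had 263, 249 and 238 CPM untreated and 853, 758 and 757 with A-485 (log2 1.66, SE 0.06). USP18, which removes ISG15 from proteins and whose copy USP41 can share its reads, had 19.5, 17.3 and 22.6 against 64.5, 53.9 and 52.4 CPM (log2 1.53), and the lysosomal enzyme genes FUCA1 and CTSO rose by 1.18 and 0.99. WDR5B rose by 1.26, TPMT, which methylates thiopurines, by 1.02 and HEXIM1, the inhibitor of the elongation factor P-TEFb, by 0.83. HEXIM1 had 55.2, 57.5 and 62.4 against 107, 102 and 102 CPM. RPP25, USP18, FUCA1, CTSO, WDR5B, TPMT and HEXIM1 were chosen after their values had been seen.

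Families were formed from gene symbols, and 64 of 67 had at least 5 tested members. Of families with at least 9 tested members, heat shock proteins, mitochondrial import and the nucleolar genes had the lowest medians. Over all tested genes 37.6% rose and 33.7% fell with TMM, and 54.5% and 19.3% by library size. Of 24 tested nucleolar genes of the NOP, NOL and UTP series, which build ribosomes, 17 fell and 2 rose, with a median log2 fold change of -1.01 (-0.61 by library size, where 15 fell and 5 rose). UTP20, a scaffold of the small subunit precursor, had 968, 1242 and 1224 CPM untreated and 343, 372 and 377 with A-485 (log2 -1.65). NOP16 (log2 -2.16), NOP14 (log2 -1.97) and UTP18 (log2 -1.31) fell as well, whereas NOL11 rose from 6.18, 4.39 and 5.23 to 13.3, 14.1 and 13.6 CPM (log2 1.36). RefSeq promoters, from 250 bases before to 50 after the start, were matched for 21 of these 24 genes, and 10 of the 21 (47.6%) held the palindrome CACGTG, an E-box, against 10.6% of 7657 tested protein-coding genes and 7.44% of all promoters in the table. It was in 6 of the 14 matched members that fell (42.9%) and in 4 of the other 7. A match is a description of letters and not of binding. The stretches around it are shown for 3 of the genes that fell, on GRCh38.p14, with the E-box in capitals:
UTP20, chr12:101280085-101280110, plus strand, 10 bases before the start: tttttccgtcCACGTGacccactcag
NOP14, chr4:2963376-2963401, minus strand, 15 bases after the start: cgcggcccggCACGTGtcttagggta
UTP18, chr17:51260447-51260472, plus strand, 89 bases before the start: gagtgctggtCACGTGgcaagaggct

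Over all genes the difference in this motif was smaller. It was present in 13.98% of 894 promoters of genes that fell at least 2-fold and in 9.30% of 1559 of those that rose at least 2-fold. At 8-fold or more the shares did not differ in that direction. The motif was then in 3 of 33 promoters of genes that fell (9.09%) and in 9 of 83 of those that rose (10.84%). No test was made of these shares. Among other families with low medians, the E-box was in 4 of 13 promoters of heat shock genes (30.8%), 4 of 21 of RNA polymerase subunits (19.0%), 3 of 19 of mitochondrial import (15.8%), 5 of 62 of mitochondrial ribosomal proteins (8.07%), 3 of 65 of cytosolic ribosomal proteins (4.62%) and 0 of 21 of Sm and LSM proteins.

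Ribosomal proteins had low medians too, where 33.7% of all tested genes fell and 37.6% rose with TMM, and 19.3% and 54.5% by library size. Of 80 tested genes for cytosolic ribosomal proteins, 56 fell and 5 rose, with a median of -0.72 (-0.31 by library size, 40 down and 11 up). RPS12 had 1033, 1003 and 1026 CPM untreated and 414, 434 and 428 with A-485 (log2 -1.26), and RPS21 and RPS14 fell by 1.42 and 1.36. These genes have many processed pseudogenes, which can share reads with them. Of 71 genes for mitochondrial ribosomal proteins, 47 fell and 10 rose, with a median of -0.87, and all 8 with 1 annotated transcript fell, against 310 of 486 (63.8%) of coding genes with 1 transcript. MRPL14 had 323, 330.4 and 331 against 122, 115 and 117 CPM (log2 -1.48), MRPS26 fell by 1.61 and MRPS10 by 0.78.

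Import of proteins into mitochondria gave 16 falls and 3 rises among 21 tested genes, with a median of -1.09, against 33.7% of all tested genes down and 37.6% up. TOMM20, a receptor of the outer membrane, had 1287, 1346 and 1245 CPM untreated and 520.5, 529.9 and 529.5 with A-485 (log2 -1.295). TOMM22 (log2 -1.46), TOMM34 (log2 -1.45) and the intermembrane chaperone gene TIMM13 (log2 -1.77) fell too, and TOMM5 rose by 1.202. The respiratory chain and ATP synthase were less uniform, with 44 falls and 22 rises of 82 and a median of -0.45 (-0.05 by library size). By library size 29 members (35.4%) rose and 29 fell, against 54.5% and 19.3% of all tested genes. All 5 members with 1 transcript fell, as did 63.8% of coding genes with 1 transcript, among them UQCRFS1, the iron-sulphur protein of complex III, from 1195, 1248 and 1208 to 466, 506 and 475 CPM (log2 -1.34), and NDUFA8 of complex I (log2 -1.09).

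Heat shock genes gave 11 falls and 3 rises among 14 tested, with a median of -1.10, against 33.7% of all tested genes down and 37.6% up. The mitochondrial chaperone gene HSPA9 had 925, 943 and 875 CPM untreated and 281, 271 and 285 with A-485 (log2 -1.71), HSPA4 fell by 1.17, HSPH1 by 1.62 and HSPE1 by 1.55. HSPD1, the chaperonin partner of HSPE1, went the other way, with 18.8, 9.08 and 6.75 against 26.6, 27.9 and 29.4 CPM (log2 1.24, SE 0.30). HSPD1 has 14 annotated transcripts and close pseudogenes, and untreated replicate 1 lay nearest to its A-485 values.

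Families of RNA synthesis and processing differed among themselves, and those with low medians come first here, against 33.7% of all tested genes down and 37.6% up. RNA polymerase subunits gave 21 falls and 6 rises of 28, with a median of -0.78. POLR1G, of the polymerase that transcribes ribosomal RNA genes, had 68.2, 65.9 and 80.3 against 14.4, 12.5 and 14.9 CPM (log2 -2.35), and POLR1A and POLR3K fell by 1.32 and 1.61. POLR2A, the catalytic subunit of RNA polymerase II, fell by 0.58 with TMM and was at -0.17 and not called by library size, while POLR2B rose from 6.05, 5.6 and 2.87 to 24.1, 22.3 and 27.9 CPM. Sm and LSM proteins of the spliceosome and of RNA decay gave 17 falls and 5 rises of 25, with a median of -0.74. SNRPD1 fell by 1.17 and SNRPB by 1.28, whereas LSM8 rose by 2.16 with 65.3, 37.1 and 32.4 CPM untreated and 199, 208 and 205 with A-485. Aminoacyl-tRNA synthetases gave 18 falls and 9 rises of 33 (median -0.39, and 0.02 by library size), with the mitochondrial MARS2 at 508, 526 and 533 against 143, 137 and 139 CPM (log2 -1.91) and EPRS1 at -1.33.

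**Figure D5:**
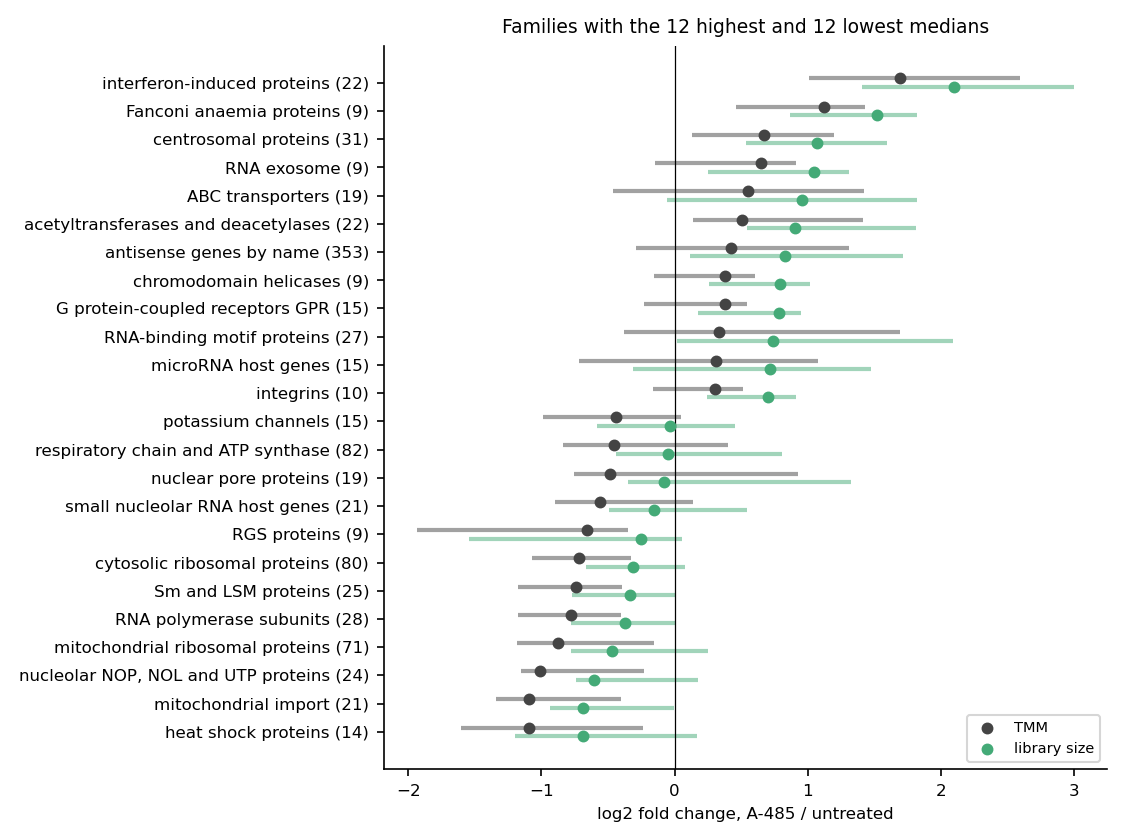
Median log2 fold change (points) and interquartile range over tested members (bars) for the 12 highest and 12 lowest families by median among those with at least 9 tested members, with TMM and by library size. Numbers of tested members are in parentheses. Interferon-induced proteins lie highest, at 1.69, and heat shock proteins lowest, at -1.10, and library size moves every family to the right.

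Interferon-induced proteins had the highest family median, 1.69 (2.10 by library size). Of 22 tested, 19 rose and 2 fell, against 37.6% and 33.7% of all tested genes. IFI44, of unknown biochemical role, had 6.05, 5.45 and 4.39 CPM untreated and 79.2, 90.1 and 79.7 with A-485 (log2 3.95, SE 0.12), and its neighbour IFI44L rose by 3.67. MX1, a GTPase that traps viral particles, had 7.26, 7.27 and 5.06 against 72.2, 66.1 and 68.8 CPM (log2 3.38). OAS3, which makes the messenger that activates RNase L, had 97.99, 125 and 124 against 526, 463 and 453 CPM (log2 2.06). The RNA-binding IFIT1 rose by 2.47 and IFIT5, with 1 transcript, by 1.54. ISG15, a ubiquitin-like modifier, had 76.8, 62.5 and 106 against 246, 179 and 185 CPM (log2 1.32, SE 0.23), the widest spread of these. Promoters were matched for 17 of the 22 genes, and 12 of the 17 (70.6%) held the core of the interferon-stimulated response element, searched as GAAANNGAA on both strands, against 6.77% of 7657 tested protein-coding genes. The stretches are shown for 5 genes that rose, on GRCh38.p14 and in the direction of the gene, with the core or its reverse complement in capitals:
IFI44, chr1:78649762-78649790, plus strand, 17 bases before the start: cacactgagtTTCAGTTTCctttctctga
IFIT1, chr10:89392498-89392526, plus strand, 115 bases before the start: tagctttagtTTCACTTTCccctttcggt
IFIT5, chr10:89414514-89414542, plus strand, 44 bases before the start: tctattaagtTTCGGTTTCtgaagcttac
OAS3, chr12:112938321-112938349, plus strand, 143 bases before the start: agaaagaaacGAAACTGAAagcagggaat
MX1, chr21:41420559-41420587, plus strand, 11 bases after the start: gagcagaaatGAAACCGAAactgaattgt

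Among all genes that rose at least 2-fold the same core was in 7.63% of promoters, and in 6.60% of those that fell at least 2-fold. In the 83 promoters of genes that rose at least 8-fold it was present in 13 (15.7%). The core was in 6.77% of the 7657 promoters of tested protein-coding genes. It was not the only motif more frequent in the set of 83. The TATA box was in 10 of them (12.05%), against 4.96% of the 7657. Of 11 motifs searched, the others are not described. Median GC content lay between 62.3% and 65.3% in each of these sets.

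Centrosomal proteins of the CEP series gave 19 rises and 3 falls among 31 tested, with a median of 0.67, against 37.6% of all tested genes up and 33.7% down. By library size 27 rose and none fell, against 54.5% and 19.3%. CEP57, which links the centriole to its surrounding material, had 65.6, 61.5 and 51.3 CPM untreated and 183, 201 and 211 with A-485 (log2 1.73). CEP350, which anchors microtubules, had 309, 402 and 427 against 536, 607 and 632 CPM (log2 0.64), with untreated replicate 1 below the other 2. CEP295 rose by 3.04 from about 1 CPM. Of 9 tested Fanconi anaemia genes, which act in repair of DNA crosslinks, 6 rose and 2 fell, with FANCI at 21.6, 14.5 and 17.6 against 82.7, 87.9 and 88.1 CPM (log2 2.26). The RNA exosome gave 6 rises and 2 falls of 9, with EXOSC8 at 26.1, 12.6 and 12.99 against 83.1, 91.5 and 85.96 CPM (log2 2.31). Zinc finger proteins of the ZNF series gave 163 rises (44.05%) and 73 falls (19.7%) of 370, with a median of 0.24. Falls were less frequent than the 33.7% over all tested genes, and rises somewhat more frequent than 37.6%. The family's median level was 15.4 CPM. Among the 2369 tested genes of 6.75 to 18.2 CPM, 46.6% rose and 25.5% fell. Rises of ZNF genes were thus not more frequent than among tested genes near their level. By library size 66.8% of the ZNF genes rose and 10.5% fell, against 54.5% and 19.3% of all tested genes. ZNF226 had 4.03, 3.18 and 3.04 against 27.5, 27.3 and 32.2 CPM (log2 3.07), ZNF117 rose by 1.59 and ZNF536 fell by 2.18.

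The enzymes that add and remove acetyl groups gave 14 rises and 3 falls of 22, with a median of 0.50 (0.91 by library size, 17 up and 2 down). Over all tested genes 37.6% rose and 33.7% fell with TMM, and 54.5% and 19.3% by library size. EP300, the target of A-485, had 1149.8, 1584 and 1664 CPM untreated and 1644, 1541 and 1539 with A-485, with overlapping groups and a log2 fold change of 0.10 (SE 0.13, adjusted p = 0.498). It rose by 0.52 by library size, and without untreated replicate 1, its lowest library, its TMM value was -0.05. CREBBP had 75.1, 76.2 and 76.3 against 102, 103 and 95.5 CPM and rose under both scalings (log2 0.40 and 0.81). KAT2B rose by 0.70 and its paralogue KAT2A fell by 0.70. Among deacetylases, HDAC1 had 16.5, 10.6 and 8.78 against 48.2, 51.4 and 47.03 CPM (log2 2.005) and HDAC2 rose by 1.08, while HDAC4 had 50.1, 59.1 and 56.03 against 19.98, 21.7 and 18.3 CPM (log2 -1.46).

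Several families were close to the shares over all tested genes, 37.6% up and 33.7% down. Proteasome subunits gave 17 rises and 19 falls of 44 (median -0.02), cyclins and their kinases 11 and 14 of 34 (median -0.01), solute carriers 58 and 61 of 159 (median 0.00) and RNA helicases of the DEAD and DEAH series 19 and 19 of 45 (median 0.05). CD surface antigens gave 12 rises and 13 falls of 30. Among them CD1C, which presents lipids, had 76.6, 87.7 and 90.5 CPM untreated and 14.9, 14.3 and 13.1 with A-485 (log2 -2.59), CD180 fell by 2.12, CD52 had 208, 226 and 216 against 802, 747 and 729 CPM (log2 1.81), and the complement regulator CD46 rose by 3.24.

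B cell markers were all measured, 12 of 12, and their summed level was 10883 to 11581 CPM untreated and 10306 to 10684 with A-485, by library size. CD79A, a signalling chain of the B cell receptor, had 627, 559 and 647 against 630.5, 515 and 502 CPM with overlapping groups, and PAX5, the factor that commits cells to the B lineage, was not called at -0.16. By library size CD79A was at 0.25 and not called, and PAX5 rose by 0.25. With TMM, CD79A was called down at -0.27 without A-485 replicate 1, and PAX5 at -0.25 without untreated replicate 1. On all 6 libraries, both genes were called down with RLE factors, with DESeq2 and without the filter on low counts. Their lack of a call with TMM therefore depends on the processing. CD74, which chaperones class II molecules of the MHC, had 1195, 1293 and 1348 against 125, 141 and 135 CPM (log2 -3.26). CD22 fell by 2.91. Of the markers of other cell types, all 5 epithelial and all 4 erythroid ones were at 0 counts in all 6 libraries, as were 4 of 6 for fibroblasts, 2 of 7 for myeloid cells and 2 of 7 for T cells. DCN, a fibroblast matrix gene, was measured at 471, 456 and 447 CPM untreated and 153, 164 and 168 with A-485, and CD3G, a T cell receptor chain, at 679, 673 and 703 against 454, 427 and 431 CPM. The summed fibroblast markers were 383 to 431 CPM untreated and 186 to 203 with A-485, and those of T cells 637 to 682 and 548 to 588. Those sums rest almost wholly on DCN and on CD3G with CD3D. The summed myeloid markers went the other way, from 32.2 to 39.9 CPM untreated to 43.5 to 48.9 with A-485 by library size, mostly from SPI1, which was not called at -0.22 with TMM. FN1 (log2 1.27), CD247 (log2 1.76) and CD33 (log2 0.96) rose. The part of these markers in the other results was not tested.

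Noncoding genes with many counts moved in both directions. MALAT1, an abundant nuclear RNA with 17 annotated transcripts, for which shared reads may be missing, had 6.99, 12.3 and 9.28 CPM untreated and 103, 113 and 119.5 with A-485 (log2 3.56, SE 0.14). CCDC18-AS1 had 12.5, 6.96 and 7.09 against 99.5, 94.7 and 93.7 CPM (log2 3.41), with untreated replicate 1 the highest untreated library. MIR142HG, the host gene of a microRNA of blood cells, had 16.9, 8.93 and 11.6 against 74.2, 49.4 and 54.7 CPM (log2 2.23). The lincRNAs LINC00877 and LINC01991 fell, with 266, 274 and 265 against 35.8, 37.2 and 40.5 CPM (log2 -2.83) for the former and a log2 fold change of -2.79 for the latter. Host genes of small nucleolar RNAs gave 11 falls and 6 rises of 21 (median -0.56), against 33.7% and 37.6% of all tested genes, and 5 falls and 6 rises by library size (median -0.16), against 19.3% and 54.5%. SNHG26 fell by 2.27 and SNHG16 by 1.72, and SNHG1 rose by 1.28.

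Some genes were counted in 1 group only. SERPINA11, a serine protease inhibitor of liver, had 42, 55 and 44 counts untreated and 0 in all A-485 libraries, at least 51.8-fold lower against a floor of 3 counts over the A-485 group. LINC02134 had 28, 31 and 25 counts untreated and 0 with A-485, at least 30.8-fold lower, and the olfactory gene GFY had 13, 23 and 14, at least 18.4-fold lower. SERPINA9, a germinal centre protease inhibitor on the same chromosome as SERPINA11, had 11, 19 and 15 counts and 0, at least 16.5-fold lower. In the other direction the counts were smaller: CCDC144NL had 0 untreated and 9, 13 and 14 with A-485, at least 10.9-fold higher against a floor of 3 counts over the untreated group, and FLG2, a protein of the skin barrier, had 6, 11 and 13, at least 9.08-fold higher. Counting error alone is covered by these bounds.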

How the data were processed

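The authors deposited raw counts of reads per gene, 1 file per library, with 5 summary lines (among them reads outside genes and reads aligned to several places). Per the submitters' processing notes, STAR 2.5.3a, RSEM and the build GRCh37 (hg19) were used. The sources used here do not give the counting program, annotation, kit or strand. Counts of overlapping genes and paralogs can therefore be mixed. Summary lines stayed out of library sizes and tests. Names came from a gene table and GENCODE 29, which matched 52526 of 63677 genes and is on GRCh38, so it gave types, transcripts and exonic lengths alone. The 11151 others held 1.33% of untreated and 1.47% of A-485 gene counts. Promoters came from RefSeq (GRCh38.p14).

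The 3 untreated and 3 A-485 libraries, grouped by label, were fitted with edgeR 4.0.16 (R 4.3.3): filterByExpr, TMM, robust quasi-likelihood, two-sided tests, Benjamini-Hochberg adjustment over 11846 genes. The fit was tested on simulated data. CPM per library are TMM-scaled, while class levels, sums and bounds use library size. SE was taken as log2 fold change over the root of F. Depth was 6949770 to 8897051 gene counts. Reads are not unique molecules, so bounds cover counting error only. Alternatives used limma 3.58.1 and DESeq2 1.42.0. No pair of replicates was counted as 1 sample, the lowest chi-square per gene being 1.20, for A-485 replicates 2 and 3. Read sampling alone gives about 1, so that pair differed by little more. The value does not show that the 2 are separate cultures. Replicate numbers were not pairs: deviations of same-numbered libraries correlated at 0.02, 0.06 and -0.04.

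Members, families and lists were chosen with earlier results of these data known. Named were: the 12 largest called rises and falls among protein-coding genes called alike under TMM and library size, without overlap and with 20 CPM or more in a group; the 10 genes with most counts; the 6 that gained and lost most by library size; the 5 largest noncoding rises and falls over 20 CPM; the 3 smallest p of each family; the 6 with most counts whose direction turned with scaling; up to 6 at 0 counts in a group; the 6 largest rises and falls among genes with 1 transcript; EP300, CREBBP and cell type markers. Not all are printed, and some genes that meet these rules are not reported here.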

Additional observations from a re-analysis of the deposited data

How the results depend on the processing

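Of 4459 rises and 3998 falls with TMM, the count of falls was 2292 by library size. Rises of at least 2-fold, 2693 in all, were 1755 with a filter of 5 CPM in 3 libraries (8390 genes tested) and 1652 when tested against 2-fold (glmTreat). Falls of at least 2-fold, 1397 in all, were 639 by library size, 843 with reads outside genes in the library size, 925 with the 5 CPM filter and 845 with glmTreat. Leaving out 1 library in turn gave 4158 to 4713 rises and 3743 to 4125 falls. DESeq2 called 3621 rises and 3754 falls, and limma-voom 4437 and 3995. The replicate number as a block gave 4346 rises and 3905 falls and changed the call of none of the 128 genes examined under the alternatives. The difference in reads outside genes was 4.77 percentage points of all reads.

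Median log2 fold changes of gene classes moved with the scaling. By library size they were 0.42 for protein-coding genes, -0.15 for those with 1 transcript, 1.05 for those with over 20 transcripts, 1.02 for antisense genes, 0.78 for lincRNAs and 0.43 for pseudogenes. With RLE factors they were -0.037 for protein-coding genes, -0.60 with 1 transcript, 0.32 for lincRNAs and -0.018 for pseudogenes, and with the 5 CPM filter -0.0034 for protein-coding genes, 0.46 for antisense genes and 0.21 for pseudogenes. Single genes turned under 2 scalings: by library size, and with reads outside genes added to it, the log2 fold change was 0.16 and 0.020 for MOB1A, 0.40 and 0.25 for TOP2A, 0.29 and 0.15 for HMGN2, 0.15 and 0.0019 for ACTR2, 0.17 and 0.023 for NUCKS1, 0.19 and 0.044 for PTPN11, 0.19 and 0.046 for RAD21, 0.25 and 0.11 for CD79A, and 0.25 and 0.11 for PAX5. TOP2A was also at 0.10 with TMM on genes with 1 transcript and at 0.054 with the 5 CPM filter. Leaving out 1 library in turn gave -0.12 to 0.040 for TOP2A and -0.045 to 0.20 for EP300. For these turned values the cause was not tested beyond the scaling itself. Genes under about 5 CPM rest on few counts at this depth.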

Other observations

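Median log2 fold changes with TMM also differed a little by chromosome, from -0.24 over 270 tested genes of chromosome 20 (67 up, 118 down) to 0.34 over 407 genes of chromosome 15 (191 up, 108 down). By library size these medians were 0.16 and 0.75. Genomic span showed no such order: the 2300 genes with the shortest spans had a median of 0.07 and the 2300 with the longest 0.07. With exonic length the median went from -0.09 over the 2301 shortest genes to 0.26 over the 2300 longest. Among genes with 1 transcript it went the other way, from 0.17 over the 379 shortest to -0.13 over the 378 longest. These classes differ in level, and no test was made of them.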
